A study of Mus musculus with 39 samples.

Results

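The 10 genes described here mark the resident macrophages of the liver, the Kupffer cells: Spic, Clec4f, Vsig4, Timd4, Cd5l, Marco, Id3, Folr2, Adgre1 and Csf1r. They were taken as a named list of Kupffer cell identity genes and were looked up by Ensembl identifier among the 55416 genes of the deposited count table. All 10 were present and all 10 were among the 15296 genes that passed the filter on low counts. The samples were whole livers of 39 male mice, with each library taken as 1 mouse. All mice came from crosses of heterozygous C57BL/6NTac mice carrying the allele CD163tm1(KOMP)Vlcg and were either CD163 knockout or littermate wildtype. CD163 is the macrophage receptor for complexes of haemoglobin and haptoglobin, and the allele is carried in the germ line rather than deleted in macrophages alone. From 6 weeks of age, and for 8 weeks, mice were fed either chow with normal water or Western diet plus fructose-supplemented water. There were 5 wildtype and 4 knockout mice on chow, and 15 wildtype and 15 knockout mice on Western diet. Replicates are named by the letters of their labels.

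Kupffer cells line the liver sinusoids, clear ageing red blood cells, bacteria and debris from portal blood, and recycle haem iron. They settle in the liver before birth and renew themselves there. Their identity is held up by signals from neighbouring sinusoidal endothelial, stellate and parenchymal cells, among them Notch ligands, BMP and TGF-beta family ligands and CSF1, which act through transcription factors such as PU.1, LXR-alpha and ID3. Spic, a factor related to PU.1, is known to be induced by haem in macrophages that take up red blood cells, where BACH1 is the repressor that haem releases. Clec4f and Timd4 mark embryo-derived resident cells, and recruited monocytes can acquire Clec4f in the liver niche. In whole liver RNA, fewer Kupffer cells and less RNA of a gene per Kupffer cell cannot be told apart.

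RefSeq promoter windows (GRCm38.p6) were at hand for 8 of the 10 genes. The 250 bases before the start are shown for Spic, whose level differed most between single livers, and for Clec4f and Vsig4, whose levels followed each other most closely by Pearson correlation. They lie at chr10:88683024-88683273, chr6:83656117-83656366 and chrX:96293439-96293688, all on the minus strand. Capitals mark a match to TGACNNNGC, the antioxidant response element bound by NRF2 and BACH1, here read on the other strand.
Spic: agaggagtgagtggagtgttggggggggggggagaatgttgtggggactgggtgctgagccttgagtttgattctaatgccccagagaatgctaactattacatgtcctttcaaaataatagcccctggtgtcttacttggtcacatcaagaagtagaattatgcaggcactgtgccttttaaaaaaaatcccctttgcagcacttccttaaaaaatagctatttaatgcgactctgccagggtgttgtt
Clec4f: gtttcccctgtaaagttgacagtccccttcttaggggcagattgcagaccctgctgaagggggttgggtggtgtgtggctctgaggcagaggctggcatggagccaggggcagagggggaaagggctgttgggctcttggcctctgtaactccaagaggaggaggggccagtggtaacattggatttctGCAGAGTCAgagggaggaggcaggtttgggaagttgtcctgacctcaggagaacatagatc
Vsig4: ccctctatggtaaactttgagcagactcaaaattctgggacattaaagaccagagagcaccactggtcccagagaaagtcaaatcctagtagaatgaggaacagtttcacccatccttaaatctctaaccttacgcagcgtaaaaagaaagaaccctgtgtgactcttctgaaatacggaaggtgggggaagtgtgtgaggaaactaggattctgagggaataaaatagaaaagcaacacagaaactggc
Both strands of each window were searched. TGACNNNGC was found for 2 of the 8 genes, Clec4f and Folr2, against 10.2% of all 32851 windows in the table. The PU.1 motif GAGGAAGT (2.44% of all windows), the E-box CACGTG of MITF and TFE factors (6.02%) and the direct repeat of nuclear receptors such as LXR (0.0152%) were in the window of 0 of the 8 genes.

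Library totals lay between 8578865 and 30438808 counts (median 14573193). Levels are CPM, the count of a gene per 1000000 counts of its library after TMM scaling, as mean ± SD over mice. The targeted gene Cd163 averaged 8.74 ± 3.89 CPM (n = 5) on chow and 8.31 ± 4.27 CPM (n = 15) on Western diet in wildtype mice. Knockout mice had 0.601 ± 0.138 CPM (n = 4) and 0.354 ± 0.209 CPM (n = 15), and no knockout liver reached the lowest wildtype liver. Sinusoidal, stellate and parenchymal liver cells were all present by their markers, and the summed CPM of the 5 hepatocyte markers lay between 39480 and 77810. By expression, 4 libraries scored with the diet other than the one their label names, and the reason was not tested. A diet score was built from 190 genes that differed between the diets in the other 35 libraries, and runs from 0 for average chow to 1 for average Western diet. The library labelled wildtype chow A scored 0.884 and that labelled knockout chow D scored 0.998. The libraries labelled wildtype Western diet A and knockout Western diet M scored 0.166 and 0.0744. The other 7 chow libraries lay between -0.103 and 0.0737 and the other 28 Western diet libraries between 0.793 and 1.228. The score genes were picked to separate these libraries, so the gap between the ranges follows in part from that choice. The 4 libraries were kept under their labels, and some results are also given without them. They were picked by expression that stood with the other diet, so passes between the diets without them are no independent result. Wildtype Western diet L and M resembled each other more than any other pair. Their counts gave a chi-square per gene of 3.70, where the second closest pair gave 9.49 and the median pair 54.8. This is above sampling noise, but library preparation also adds noise, so the value cannot tell separate mice from repeat libraries of the same liver. L and M were counted as separate mice because their labels name them so.

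Per kilobase of merged exon, the scale on which genes can be set beside each other, Id3 was the most abundant at a median level of 55.1 CPM per kb over the 39 livers. Clec4f followed at 37.3 and Cd5l at 31.8 CPM per kb. Vsig4 was at 9.23, Csf1r at 5.51 and Adgre1 at 2.26 CPM per kb. Timd4 at 1.71, Folr2 at 1.54 and Marco at 1.39 CPM per kb lay close together, with overlapping ranges, as did those of Clec4f and Cd5l and those of Vsig4 and Csf1r. Spic had the lowest median, 0.324 CPM per kb, and the widest range, 0.0725 to 75.6 CPM per kb. The highest liver exceeded the lowest by 1043-fold for Spic. The same ratio was 25.9 for Marco, 14.9 for Folr2, 13.2 for Vsig4, 7.11 for Adgre1, 7.04 for Id3 and 6.89 for Cd5l. It was smallest for Clec4f (5.36), Csf1r (5.07) and Timd4 (4.82).

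Spic occurred at separate levels in single livers. In wildtype chow livers A to E it was at 1.96, 190.6, 290.2, 98.3 and 0.852 CPM. In knockout chow livers A to D it was at 1.01, 2.65, 0.933 and 0.701 CPM. On Western diet, the lowest, median and highest wildtype livers were at 0.278, 1.13 and 196.9 CPM and the knockout livers at 0.452, 1.32 and 3.80 CPM. Thus 3 of 5 wildtype livers on chow were high, whereas on Western diet the high wildtype livers were M (196.9 CPM) and L (174 CPM), and the next wildtype liver, N, was at 2.05 CPM. Together 5 of 20 wildtype and 0 of 19 knockout livers were above 50 CPM, a line drawn after the values were seen. The wildtype count takes L and M as separate mice, which was not tested. The 5 high livers had 1397 to 3515 counts of Spic and the other 34 livers 3 to 134 counts. The lowest of the 5 was 25.9-fold above the highest of the 34, so counting error is small beside the gap. None of the 5 was among the 4 libraries that scored with the other diet. By their labels, the 3 high chow livers had consecutive library numbers and so had L and M, and the part of the library order in the result was not tested.

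**Figure D1:**
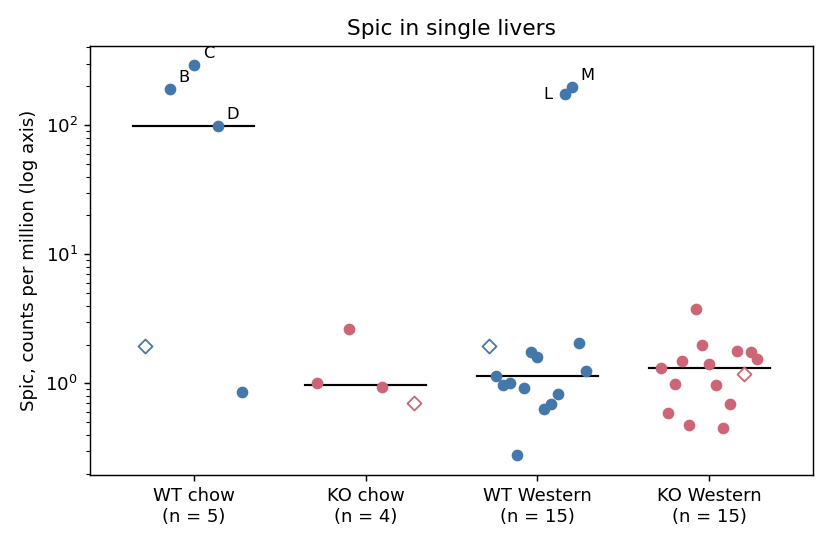
Spic in CPM (log axis) in each liver, by genotype and diet. Points are single mice, bars are group medians, and open diamonds are the 4 libraries that scored with the other diet. The lettered wildtype livers lie between 98.3 and 290.2 CPM and the other 34 livers between 0.278 and 3.80 CPM.

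The group means of Spic rested on these few livers. On Western diet Spic averaged 25.7 ± 65.0 CPM in wildtype against 1.36 ± 0.832 CPM in knockout livers, and the fitted log2 fold change of knockout against wildtype was -4.13 (SE 1.00). It did not pass edgeR's quasi-likelihood test (adjusted p = 0.767). A 2-sided permutation test of mean log2 CPM over the 30 livers gave a difference of -0.81 (p = 0.346). Without the 4 libraries that difference was -0.82 (permutation p = 0.381). With all libraries, DESeq2 did call Spic lower on Western diet, at -4.23 (adjusted p = 3.54e-04). Without wildtype L and M, the edgeR value turned to 0.32 and the difference in mean log2 CPM to 0.16 (permutation p = 0.556), so its direction rested on this pair of livers.

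On chow Spic averaged 116.4 ± 125 CPM (n = 5) in wildtype against 1.32 ± 0.893 CPM (n = 4) in knockout livers. The fitted value was -6.46 on the log2 scale (SE 2.04), with an adjusted p of 1.00 in edgeR. An exact 2-sided permutation test over all 126 splits gave a difference of -4.31 in mean log2 CPM (p = 0.127, the smallest possible being 0.0159). Without the 4 libraries that difference was -5.01 (permutation p = 0.229, the smallest possible being 0.0571). With all libraries, DESeq2 called the gene on chow too, at -6.48 (adjusted p = 0.0395). Because all groups share 1 estimate of the spread, leaving out wildtype Western diet L and M brought the edgeR value on chow, -6.47, past the threshold (adjusted p = 0.00147, where 0.0131% of all genes passed). L and M were the livers high in Spic in their group, so this pass followed from leaving out high values of the tested gene.

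Between the diets, Spic in wildtype livers had a log2 fold change of -2.18 on Western diet against chow (SE 1.03, edgeR adjusted p = 0.267). Without L and M the value was -6.62 (adjusted p = 1.72e-08, where 0.79% of all genes passed), and limma voom gave -4.44 with all libraries (adjusted p = 0.00826). In knockout livers the diet value was 0.15 (SE 1.78). The difference between these diet values was 2.33 (SE 2.09, edgeR adjusted p = 1.00), and 6.79 without L and M (adjusted p = 0.00978). The wildtype values set 3 high chow livers of 5 against 2 of 15 on Western diet, or against 0 of 13 without L and M. L and M were themselves the wildtype Western diet livers high in Spic. The adjusted p-values without them thus follow from the exclusion and are no independent result.

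For most of the other Kupffer cell genes, the livers high in Spic did not share high levels. Among the 39 livers, ranked from the highest, wildtype Western diet L and M were at ranks 8 and 7 for Clec4f and 7 and 8 for Cd5l. Wildtype chow B, C and D were at ranks 15, 34 and 27 for Clec4f and 27, 37 and 30 for Cd5l. Marco and Id3 differed from this. Marco was at ranks 13 and 11 in L and M and at ranks 7, 17 and 21 in chow B, C and D. Id3 was at ranks 12 and 10 in L and M and at ranks 34, 5 and 4 in chow B, C and D. Adgre1, which encodes F4/80, was lowest of all livers in chow D (2.81 CPM) and next lowest in chow C (3.14 CPM). Hmox1, the haem-degrading enzyme, was at 28.7 and 32.3 CPM in L and M and at 19.5, 12.8 and 11.7 CPM in chow B, C and D, where the median of all livers was 19.5 CPM. The acute phase gene Saa1 was at 2266 and 2699 CPM in L and M but at 43.5, 125.2 and 38.3 CPM in chow B, C and D. Counted in protein-coding genes along chromosome 10, Gnptab and Chpt1 lie at places -4 and -2 from Spic. Arl1 and Utp20 lie at places 2 and 3, and the genes directly next to Spic are not described. Gnptab was at 7.89 to 10.5 CPM and Chpt1 at 166.1 to 251.6 CPM in the 5 livers, against 7.92 to 15.5 CPM and 148.1 to 479.9 CPM in the others. Arl1 was at 99.6 and 97.4 CPM in L and M, ranks 5 and 8 of 39, and at 77.7 CPM or less in chow B, C and D (median of all livers 82.8 CPM). Utp20 was at 23.9 and 17.95 CPM in L and M and at 17.4 to 18.4 CPM in chow B, C and D (median 20.6 CPM).

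The ranges of the groups overlapped for all 10 genes, Spic included, in each of the 4 comparisons of genotype or diet. The share of all genes with such overlap is not given, so whether overlap is particular to the 10 cannot be said. On Western diet, 0 of the 10 genes passed edgeR's test between knockout and wildtype livers, where 0.00654% of all tested genes did (1 gene, Cd163). At an unadjusted p under 0.05, 1 of the 10 (Spic) stood against 5.08% of all genes. The median log2 fold change of the 10 was 0.19 against 0.0091 over all genes. Of the 10 values 8 were positive, against 53.5% over all genes. Most of the 10 followed each other between livers (below), so these are not separate observations. DESeq2 called 1 of the 10, Spic, where it called 0.0196% of the 15296 genes, and limma voom called 0 of the 10, where it called 0.00654%.

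Clec4f, the C-type lectin that defines Kupffer cells in mice, averaged 100.5 ± 37.3 CPM in wildtype against 105.8 ± 38.1 CPM in knockout livers on Western diet (n = 15 each). Its lowest, median and highest livers were at 35.3, 91.3 and 189.4 CPM in wildtype and at 53.4, 98.6 and 177.5 CPM in knockout livers, so the ranges lay over each other. The log2 fold change was 0.08 with a 95% interval of -0.29 to 0.44. Vsig4, the complement receptor that captures C3b-coated particles, averaged 13.7 ± 6.68 CPM in wildtype against 15.8 ± 7.25 CPM in knockout livers, with an interval of -0.29 to 0.71. Timd4, a receptor for phosphatidylserine on dying cells, was at 3.72 ± 1.53 and 4.19 ± 1.45 CPM, with an interval of -0.21 to 0.56. For these 3 genes the intervals leave out a change of 1 on the log2 scale in either direction.

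The scavenger receptor Marco was the least certain of the 9. On Western diet it ran from 0.569 through a median of 1.70 to 12.8 CPM in wildtype and from 0.778 through 2.38 to 14.7 CPM in knockout livers. The log2 fold change was 0.48 (interval -0.41 to 1.37), and leaving out 1 liver at a time moved it between 0.09 (without knockout F) and 0.93 (without wildtype G). Cd5l, a secreted scavenger protein of tissue macrophages, averaged 71.1 ± 27.0 CPM in wildtype against 82.9 ± 37.3 CPM in knockout livers. Csf1r, the receptor for the survival factors CSF1 and IL-34, was at 33.7 ± 12.3 and 38.7 ± 14.9 CPM. Adgre1 was at 8.03 ± 3.49 and 9.75 ± 4.90 CPM. Folr2, a folate receptor of resident macrophages, was at 2.53 ± 1.16 and 2.69 ± 1.36 CPM. Id3 was the other gene with a negative value, averaging 117.7 ± 61.9 CPM in wildtype against 97.4 ± 32.0 CPM in knockout livers (log2 fold change -0.27, SE 0.22).

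**Figure D2:**
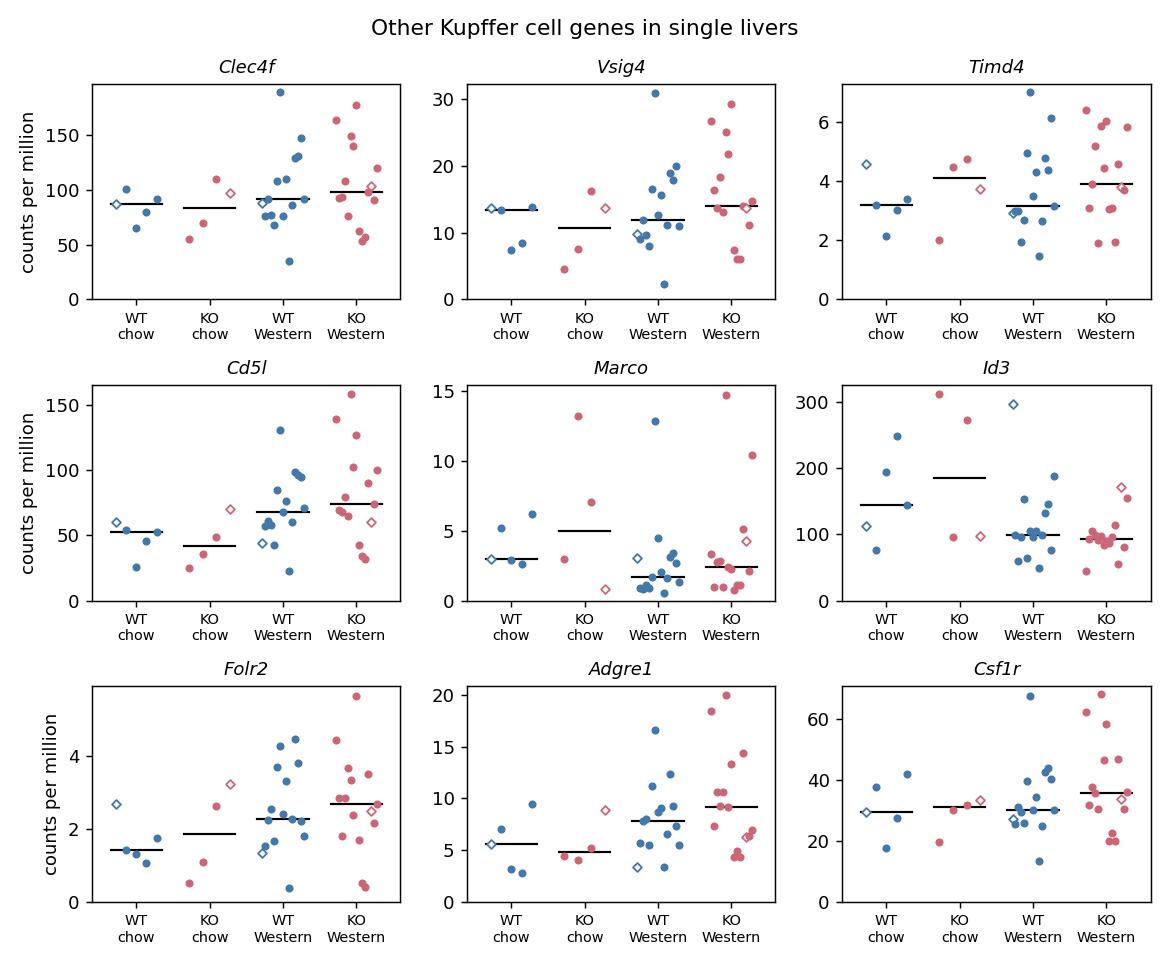
The 9 other Kupffer cell genes in CPM (linear axes from 0) in each liver, by genotype and diet. Points are single mice, bars are group medians, and open diamonds are the 4 libraries that scored with the other diet. The groups overlap in every panel, and Id3 was highest in knockout chow A (312.0 CPM).

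On chow, 0 of the 10 genes passed edgeR's test between the genotypes, where again 0.00654% of all tested genes did (1 gene, Cd163). At an unadjusted p under 0.05, 1 of the 10 (Spic) stood against 2.74% of all genes. DESeq2 called 1 of the 10, Spic, and 0.0131% of all genes, and limma voom 0 of the 10 and 0.0% of all genes. The median log2 fold change of the 10 was -0.02 against 0.0036 over all genes, with 4 positive values against 50.9% over all genes. Clec4f was at 87.0, 100.7, 65.4, 79.8 and 91.9 CPM in wildtype livers A to E and at 55.5, 69.8, 109.9 and 97.3 CPM in knockout livers A to D. Knockout livers held both the lowest and the highest value. Marco was at 2.97, 5.17, 2.89, 2.60 and 6.23 CPM in wildtype and at 2.96, 13.2, 7.04 and 0.863 CPM in knockout livers. Knockout B and C were above every wildtype liver on chow, and knockout D, one of the 4 libraries that scored with the other diet, was below all of them. With 4 and 5 livers the intervals were wide, from -0.70 to 0.63 on the log2 scale for Clec4f and from -1.003 to 2.16 for Marco.

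Between the diets, 0 of the 10 genes passed in wildtype livers, where 1.39% of all tested genes did, and 0 of the 10 in knockout livers, where 0.00654% did. At an unadjusted p under 0.05 there were 1 of 10 in wildtype (Spic, against 17.2% of all genes) and 3 of 10 in knockout livers (Id3, Cd5l and Adgre1, against 19.2%). DESeq2 called 0 of the 10 in either genotype, where it called 3.29% of all genes in wildtype and 1.48% in knockout livers. Limma voom called 1 of the 10 in wildtype (Spic, against 6.83% of all genes) and 1 in knockout livers (Id3, against 5.36%). The median log2 fold change of Western diet against chow was 0.21 in wildtype and 0.39 in knockout livers, against -0.0032 and -0.0005 over all genes. The interaction, the difference between the diet values of the genotypes, passed for 0 of the 10 genes, and 0.0% of all tested genes passed it. At an unadjusted p under 0.05 the interaction had 0 of the 10 genes and 1.86% of all genes, and without L and M edgeR called 1 of the 10, Spic, and 0.00653% of all genes. That call followed from leaving out the high Spic values of L and M.

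Id3, the inhibitor of helix-loop-helix factors that keeps up Kupffer cell identity, had the largest negative diet value of the 10 in knockout livers. In knockout chow livers A to D it was at 312.0, 96.2, 272.0 and 98.0 CPM, and in wildtype chow livers A to E at 112.4, 75.6, 193.4, 247.8 and 143.7 CPM. On Western diet its lowest, median and highest livers were at 44.3, 92.6 and 171.5 CPM in knockout and at 49.4, 99.6 and 296.6 CPM in wildtype mice. The highest Western diet liver of each genotype was one of the libraries that scored near chow, knockout M (171.5 CPM) and wildtype A (296.6 CPM). The diet value in knockout livers was -0.998 on the log2 scale (SE 0.32), with an adjusted p of 0.133 in edgeR. Without the 4 libraries it was -1.28 (SE 0.30) and passed (adjusted p = 0.00465). These were picked by expression that stood with the other diet, so the pass is no independent result. The same holds without knockout chow D alone, at -1.21 (adjusted p = 0.0271, where 9.06% of all genes passed). With all libraries, the diet value passed in limma voom, at -1.18 (adjusted p = 0.0294). Without knockout chow A it was -0.67. In wildtype livers it was -0.39 (SE 0.31, edgeR adjusted p = 0.542), or -0.65 without the 4 libraries (adjusted p = 0.152), and the interaction value of -0.60 did not pass (adjusted p = 1.00).

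Id3 is not particular to macrophages in whole liver, since endothelial and parenchymal cells transcribe it in response to BMP signals. Id1, another target of BMP signals, had a diet value of -0.87 in knockout livers (SE 0.31, edgeR adjusted p = 0.145). Bmp6, a ligand made by sinusoidal endothelial cells, was at -0.65 (adjusted p = 0.194). Without the 4 libraries Bmp6 fell by 0.81 in knockout (adjusted p = 0.0204) and by 0.68 in wildtype livers (adjusted p = 0.0469). Bmp6 is 1 of the 10 niche signals listed below. In that fit 5 of these 10 had positive diet values in knockout livers, with a median of -0.0164, and 1 passed. The list also holds the BMP ligands Gdf2, Bmp10 and Bmp2, whose diet values are not given here. Without the 4 libraries, Gdf2 ran from 12.5 to 16.9 CPM in knockout chow and from 9.34 to 25.9 CPM in knockout Western diet livers. Bmp10 ran from 2.63 to 2.71 and from 1.79 to 4.09 CPM, and Bmp2 from 13.3 to 16.4 and from 7.04 to 17.7 CPM. For Gdf2, Bmp10 and Bmp2 the chow livers thus lay within the Western diet range. In that setting, 2 of the 8 sinusoidal endothelial markers passed between the diets in knockout livers, against 17.2% of all genes. They were Ehd3 and Clec4g, which fell by 0.58 and 0.56 (adjusted p = 0.0159 and 0.0351). The 8 values ran from -0.58 to 0.20 with a median of -0.42, and 1 was positive. With all libraries, the summed level of these 8 markers ran from 326.4 to 408.4 CPM in knockout chow and from 177.9 to 458.3 CPM in knockout Western diet livers. The upper ends were knockout chow D and knockout Western diet M, both among the 4 libraries that scored with the other diet. The part of endothelial cells and of BMP signals in the Id3 values was not tested.

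Cd5l had the largest positive diet value in knockout livers. It was at 25.2, 36.0, 48.4 and 70.3 CPM in knockout chow livers A to D, and its lowest, median and highest knockout livers on Western diet were at 32.3, 74.2 and 158.7 CPM. Knockout D, the highest knockout chow liver, was one of the 4 libraries that scored with the other diet. The diet value was 0.88 (SE 0.36, adjusted p = 0.181 in edgeR), or 1.24 (SE 0.42) without the 4 libraries, which passed (adjusted p = 0.0377). In wildtype livers the value was 0.57 (SE 0.32, edgeR adjusted p = 0.357). Adgre1 had a diet value of 0.80 in knockout livers (adjusted p = 0.247), or 1.18 without the 4 libraries (adjusted p = 0.0614).

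Without the 4 libraries, 2 of the 10 genes (Cd5l higher, Id3 lower) thus passed between the diets in knockout livers, where 17.2% of 15461 tested genes did. The 4 were picked by expression that stood with the other diet, so these passes are no independent result. In wildtype livers 0 of the 10 passed, where 8.66% did. The shares of the 10 were near these backgrounds in knockout and below in wildtype livers. The genotype comparisons without the 4 libraries again had 0 of the 10, where 0.00647% of genes passed on each diet.

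**Figure D3:**
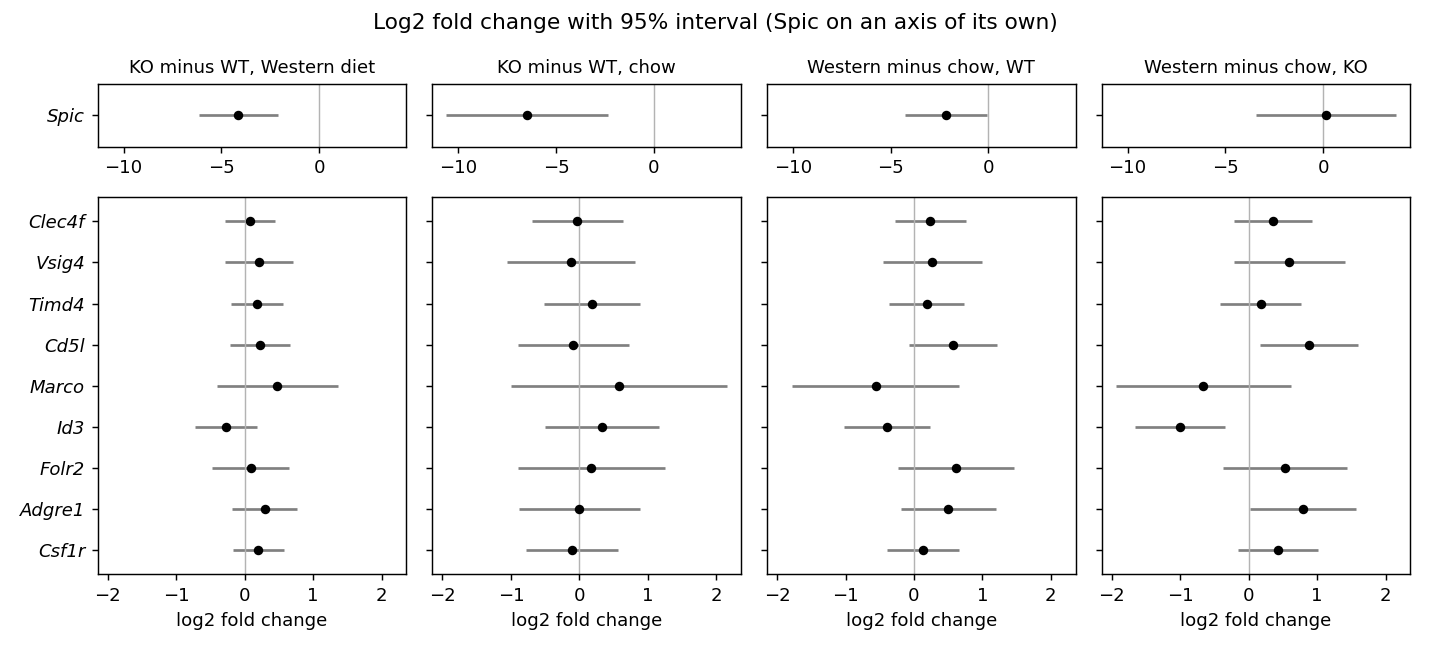
Log2 fold changes of the 10 genes in the 4 comparisons, as points with 95% intervals from the edgeR fit to all 39 libraries (KO, knockout, WT, wildtype). Spic has an axis of its own. Clec4f on Western diet has the interval -0.29 to 0.44, and Id3 between the diets in knockout livers lies at -0.998.

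Across livers of 1 diet, most of the Kupffer cell genes followed each other. Log2 CPM of each pair was correlated over the 30 Western diet livers after centring within genotype, with permutation p-values adjusted over the 45 pairs (Benjamini-Hochberg). Clec4f, Vsig4, Timd4, Cd5l, Folr2, Adgre1 and Csf1r formed 21 pairs with Spearman's rho between 0.65 and 0.94, and all 21 passed by rho and by Pearson's r. Clec4f and Vsig4 had r = 0.97 and rho = 0.94 (r = 0.96 without the 2 livers farthest from the median of Clec4f). Cd5l and Csf1r had r = 0.96 and rho = 0.94. Marco passed with 8 of the 9 others, with rho from 0.23 (Id3) to 0.78 (Timd4). Id3 passed with 0 of 9, with rho between -0.22 and 0.23. Values of 1 liver share its library, depth and scaling.

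Spic lay between these patterns. Its rho with the others ran from 0.17 (Id3) to 0.64 (Marco), and it passed with 7 of 9 by rho and with 4 of 9 by r. With Marco it had r = 0.42 (adjusted permutation p = 0.0319) and rho = 0.64 (adjusted permutation p = 4.3e-05). L and M stand apart from the rest in Spic, so the correlations were also taken over the 28 livers without them. There Spic had r = 0.72 and rho = 0.74 with Marco (adjusted permutation p = 6.43e-05 and 1.18e-04). With Clec4f it had r = 0.61 and rho = 0.62 (adjusted permutation p = 0.00141 and 0.00122). Over these 28 livers Spic passed with 6 of 9 genes by rho and by r (Clec4f, Vsig4, Timd4, Cd5l, Marco and Csf1r). It did not pass with Folr2, Adgre1 or Id3. With L and M kept, wildtype Western diet A and knockout Western diet M were left out in another run. There Spic did pass with Adgre1, at rho = 0.44 and r = 0.37 (adjusted permutation p = 0.0141 and 0.0477). Outside the 5 high livers, Spic had 3 to 134 counts per library.

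**Figure D4:**
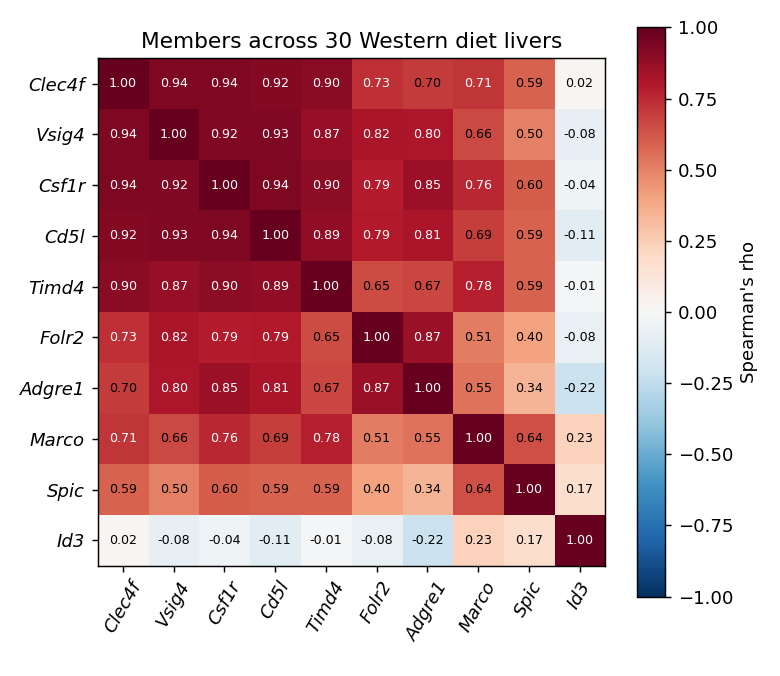
Spearman's rho between pairs of the 10 genes over 30 Western diet livers, from log2 CPM centred within genotype (colour scale from -1 to 1, with the values in the cells). The 7 genes at the upper left share rho of 0.65 to 0.94, and Id3 lies between -0.22 and 0.23 with all others.

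Single livers at the ends carried several genes at once. Wildtype Western diet J was the lowest of all 39 livers for 7 of the 10 genes, Clec4f, Vsig4, Timd4, Cd5l, Marco, Folr2 and Csf1r. Wildtype Western diet G was the highest for Clec4f (189.4 CPM), Vsig4 (30.9 CPM) and Timd4 (7.01 CPM). Knockout Western diet F was the highest for Cd5l (158.7 CPM), Marco (14.7 CPM), Adgre1 (20.0 CPM) and Csf1r (68.0 CPM). The means of the general macrophage genes followed, with J at rank 39, G at rank 2 and F at rank 1 of 39. For genes of recruited and lipid-associated macrophages, F ranked 1, G ranked 4 and J ranked 39. Liver J also ranked 38 for neutrophil and 34 for sinusoidal endothelial markers, G ranked 1 for acute phase genes and neutrophil markers, and F ranked 1 for stellate cell markers. The part of these other cell types in the values was not tested.

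In wildtype livers the Kupffer cell genes also followed Cd163. Log2 CPM was centred within each diet as labelled, and values were permuted within diet. L and M entered as separate mice. No value is given without them, or without wildtype chow A and wildtype Western diet A over both diets. Over the 20 wildtype livers, Clec4f had r = 0.81 and rho = 0.80 with Cd163 (adjusted permutation p = 1.67e-04 and 7.33e-04 over 10 genes), and r was 0.81 without the 2 livers farthest from the median of Cd163. Vsig4 had r = 0.80 and rho = 0.78. Timd4, Cd5l, Folr2, Adgre1 and Csf1r had r between 0.70 and 0.78, and Marco had r = 0.59 and rho = 0.57 (adjusted permutation p = 0.0112 and 0.0150). Within the 15 wildtype livers on Western diet, r was 0.83 for Clec4f, 0.79 for Vsig4, 0.61 for Marco, 0.53 for Spic and 0.15 for Id3, and the 5 chow livers were too few for a value. Over all 20 livers the relation did not pass for Spic (r = 0.29 and rho = 0.19, adjusted permutation p = 0.244 and 0.467). It did not pass for Id3 either (r = -0.06 and rho = -0.10, adjusted permutation p = 0.810 and 0.690). Among the livers high in Spic, chow C and D were at 4.95 and 5.21 CPM of Cd163, and L, M and chow B at 14.4, 14.9 and 13.1 CPM.

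**Figure D5:**
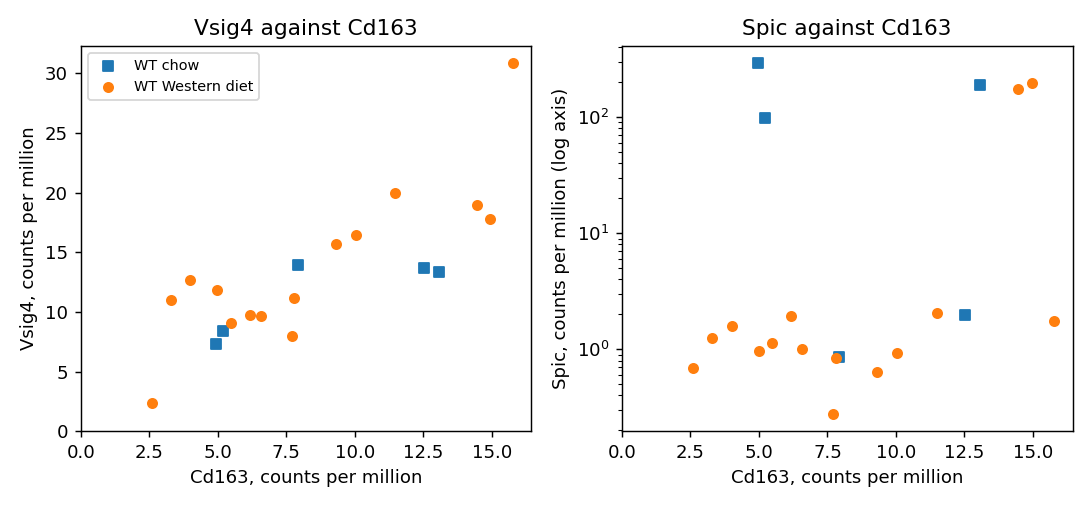
Vsig4 (linear axis) and Spic (log axis) against Cd163, all in CPM, in the 20 wildtype livers (squares, chow; circles, Western diet). Vsig4 runs with Cd163 (r = 0.80, from log2 CPM centred within diet rather than the CPM drawn), whereas the livers high in Spic lie at Cd163 levels from 4.95 to 14.9 CPM.

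The genes whose pattern over the 39 livers was most like the mean of the 9 genes other than Spic were C1qa, C1qb and C1qc, the chains of complement C1q (rho = 0.92 each), Ctss (0.91), Cfp (0.90) and Lyz2 (0.90), among 13020 named genes. Those most like Spic were Fermt3 and Wdr13 (rho = 0.66 each), Sema6d (0.65), Creb3l1 (0.65), Ifi30 (0.64) and Tmem106a (0.62). These are ranks of a search and carry no test.

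The other genes of the Kupffer cell programme were counted in the same fits. Of 12 further Kupffer cell markers, 0 passed between the genotypes on Western diet (median log2 fold change 0.13), with Pcolce2 at 0.21 and Kcna2 at 0.17 having the smallest p. Of 13 general macrophage genes, 0 passed (median 0.12), with Cybb at 0.36 and Mertk at 0.16. Of 11 transcription factors of Kupffer cells, 0 passed (median 0.04), with Cebpb at -0.53 and Zeb2 at 0.21. Of 10 niche signals, 0 passed (median -0.07), with Dll1 at -0.17 and Csf1 at -0.25. Of 13 haem and iron handling genes, 0 passed (median 0.03), with the iron exporter Slc40a1 at 0.28 and haptoglobin, Hp, at -0.41. Of 9 tested genes of recruited and lipid-associated macrophages, 0 passed (median 0.17), with Itgax at 0.56 and Spp1 at 0.17. At an unadjusted p under 0.05 the 6 lists had 2 of 68 genes, against 5.08% of all genes.

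The same lists between the diets in knockout livers had 0 members passed each, with medians of 0.20 for the further Kupffer cell markers, 0.43 for general macrophage genes, -0.03 for transcription factors, -0.04 for niche signals, 0.11 for haem and iron genes and 0.40 for recruited macrophages. In wildtype livers the medians were 0.27, 0.16, 0.03, -0.11, -0.03 and -0.25, again with 0 passed. Without the 4 libraries, Pcolce2 rose by 1.02 in wildtype livers (edgeR adjusted p = 0.0382) and Fabp5, a lipid carrier of recruited macrophages, fell by 1.66 in knockout livers (adjusted p = 0.0437). With Bmp6 in both genotypes, these were the members of the 6 lists that passed there, against 8.66% of all genes in wildtype and 17.2% in knockout livers. As the 4 libraries were picked by expression, these passes are no independent result either. On chow, the genotype medians were 0.13, -0.12, 0.11, -0.03, -0.03 and -0.23 in the same order, with 0 passed. At an unadjusted p under 0.05 the 6 lists had 3 of 68 genes between the diets in knockout livers (against 19.2% of all genes), 4 in wildtype livers (against 17.2%) and 1 between the genotypes on chow (against 2.74%). These shares of the 6 lists were below those of all genes.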

How the data were processed

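Per the labels' protocols, RNA from snap-frozen liver was sequenced from both ends on a NovaSeq instrument after library preparation with NEBNext Ultra. Per the submitters' processing notes, STAR 2.7.8a, featureCounts 2.0, FastQC and MultiQC were used with GRCm39. Neither the gene annotation nor the strandedness of counting is given in the sources used here. The deposited values are raw counts per gene, and each value was a whole number. Symbols came from GENCODE M21 and promoter windows from RefSeq, both of GRCm38.

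Low genes were removed with filterByExpr in edgeR 4.0.16 (minimum count 10, minimum total 15), libraries were scaled by TMM, and all 39 libraries entered 1 robust quasi-likelihood fit by group in R 4.3.3. The SE is the one implied by the F statistic. P-values were adjusted over all tested genes (Benjamini-Hochberg, threshold 0.05). Log2 CPM used a prior count of 2. Permutation tests were 2-sided, with 100000 resamples or exact (scipy 1.17.1). The fit was tested on simulated data. Alternatives were RLE factors, no filter, DESeq2 1.42.0, limma 3.58.1 voom with quality weights, a replicate block, the library number as covariate, subsets of libraries, and a prior count of 0.5.

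The 10 genes and all lists were chosen with earlier results of these data known. The rule for naming takes all 10 genes in each comparison, of other lists the called members or else those with the 2 smallest p, the 6 genes most like Spic and the 6 most like the mean of the 9 others, and Cd163. Genes named beside Spic, and Ehd3, Clec4g, Id1, Bmp6, Gdf2, Bmp10 and Bmp2 beside Id3, were set there after values were seen.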

Additional observations from a re-analysis of the deposited data

Results flagged for a closer look

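In 1 of 22 chow groups of a single gene tested for a liver far from the rest, the highest liver stood apart: Spic in knockout chow B was at 2.65 CPM, with the next knockout chow liver at 1.01 CPM. The gap took up 0.843 of the range of the 4 livers, above the critical value of 0.829 (Dixon's test at 95%). Chance alone flags about 1 group in 20. The same liver was the highest knockout chow liver for Marco, at 13.2 CPM.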

How the results depend on the processing

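The count of genes past the threshold between the diets in knockout livers (1 in the reported fit) was 0 with no filter, with the replicate block, with the library number as covariate, without wildtype Western diet L and M, with L and M summed and with only the groups compared. It was 2657 without the 4 libraries, 2557 without these and L and M (a setting chosen after seeing the data), 820 by limma voom and 227 by DESeq2. In wildtype livers (212) it was 44 with no filter, 50 with the replicate block, 0 with the covariate, 1339 without the 4 libraries, 1213 without these and L and M, 121 without L and M, 116 with L and M summed, 1045 by limma voom and 504 by DESeq2. Between the genotypes on Western diet (1) it was 3 with no filter and 3 by DESeq2, and on chow (1) it was 2 without L and M, 2 without these and the 4 libraries, 0 by limma voom and 2 by DESeq2. The interaction (0) had 1 gene in each fit without L and M. Leaving out 1 library at a time gave 0 to 1408 in knockout (highest without knockout chow D), 0 to 556 in wildtype livers (highest without wildtype chow A), 1 on each diet between the genotypes and 0 for the interaction.

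Directions turned for these log2 fold changes, none of them past the threshold in either fit. With the replicate block, Spic between the diets in knockout livers was -0.35, Timd4 -0.0078 and, in wildtype livers, -0.081, and Adgre1 on chow was 0.066. With the covariate, Spic between the diets in knockout livers was -1.28 and Clec4f on chow 0.015. Without the 4 libraries, Spic between the diets in knockout livers was -0.026 and Folr2 on chow -0.0565, and without L and M as well they were -0.041 and -0.046, with Spic between the genotypes on Western diet at 0.42. Without L and M alone this last value was 0.32, and the difference in mean log2 CPM of Spic was 0.16. By limma voom, Folr2 between the genotypes was -0.13 on Western diet and -0.41 on chow, where Marco was -0.16 and Timd4 -0.015. Leaving out 1 library at a time, the chow genotype values ran from -0.33 to 0.27 for Adgre1, -0.41 to 0.11 for Cd5l, -0.20 to 0.12 for Clec4f, -0.25 to 0.036 for Csf1r, -0.28 to 0.50 for Folr2, -0.18 to 0.92 for Marco and -0.39 to 0.13 for Vsig4. Folr2 on Western diet ran from -0.019 to 0.17. Diet values ran from -0.019 to 0.26 for Csf1r in wildtype and, in knockout livers, from -1.02 to 0.093 for Marco, -0.11 to 0.73 for Spic and -0.031 to 0.31 for Timd4.

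Replicate letters are not said to mark pairs. Wildtype and knockout Western diet livers of 1 letter had a mean correlation of -0.0104 over 15 pairs, and 2 of 15 correlated best with their own letter. The replicate block brought Spic between the diets in wildtype livers to -5.75 (adjusted p = 0.0457). Genes at few counts limit precision, with Folr2 at 6 to 118 and Timd4 at 23 to 207 counts per library.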
